A study of Homo sapiens with 12 samples.

Results

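The genes described here are 10 transcripts that are widely used as a readout of signalling through the mitogen-activated protein kinase (MAPK) pathway: the phosphatases DUSP4, DUSP5 and DUSP6, the Sprouty proteins SPRY2 and SPRY4, the ETS transcription factors ETV4 and ETV5, the transcription factors EGR1 and FOSL1, and PHLDA1. They were chosen by name from the 58174 genes in the tables, by a rule that uses no measured value though with earlier results of these data known, and all 10 were present and deep enough to be tested among 14232 genes. They were measured in the glioblastoma lines LN229 and U251, which are established human cell lines. In each line 2 libraries came from cells given siRNA against XRN2, a nuclear 5′-to-3′ exoribonuclease, 2 from cells given a non-targeting control siRNA (labelled siNT_OTP) and 2 from mock-transfected cells, 12 libraries in 6 groups. RNA was collected after 72 hours. The lines also differed in culture, LN229 in DMEM and U251 in EMEM with more serum, so line and medium cannot be told apart. The siRNA groups are transient knockdowns in 1 line each, and the labels do not say whether the 2 libraries of a group were separate cultures, so a p-value here reflects the spread between libraries, which may be technical.

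In the MAPK pathway, receptor signals pass through RAS, RAF and MEK to the kinase ERK, which enters the nucleus and switches on a set of genes. Immediate early genes such as EGR1 respond first, through serum response factor and its ETS partners bound at CArG boxes, while FOSL1 is known to accumulate with sustained activity. Several targets feed back on the pathway: the DUSP proteins remove phosphate from ERK and Sprouty proteins dampen signalling upstream of it. These feedback transcripts are therefore commonly measured to read pathway output in tumour cells, glioblastoma among them. Transcript levels are what was measured here, and no phosphorylated protein was.

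The best-known DNA elements of such promoters could be shown for members whose start region was available. RefSeq windows (GRCh38.p14, from 250 bases before to 50 bases after the start) matched 5 of the 10 genes, EGR1, SPRY4, PHLDA1, DUSP6 and SPRY2, and 4 motifs were searched on both strands: the CArG box, the ETS core CCGGAA, the AP-1 site TGANTCA and the cyclic AMP response element TGACGTCA. A 30-base stretch is shown around each match, in the direction of transcription, with the motif (or its reverse complement) in capitals.
EGR1, CArG box, chr5:138465364-138465393, plus strand: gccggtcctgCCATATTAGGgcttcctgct
EGR1, CArG box, chr5:138465386-138465415, plus strand: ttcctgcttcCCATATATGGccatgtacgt
PHLDA1, ETS core, chr12:76031848-76031877, minus strand: gaggagaggagtTTCCGGggctcgggtccg
SPRY2, ETS core, chr13:80341251-80341280, minus strand: tccctgcctcctCCGGAAaggcgagggcgc
The CArG box, 1.29% of 35116 windows, was found in 1 of the 5, EGR1. The ETS core, in 17.2% of windows, was found in 2 of the 5, while the AP-1 site (7.71% of windows) and the cyclic AMP element (1.85%) were in none of the 5. The PHLDA1 stretch lies before a RefSeq start but inside the span over which its reads were counted, chr12:76025447-76033932, minus strand. A match describes the letters in the window and shows no binding, and the search covered no distal element.

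The libraries held 4846768 to 7469052 reads assigned to exons. Levels are given as CPM (counts-per-million), the exon count of a gene relative to all exon reads after scaling by trimmed mean of M-values (TMM). On this scale a count of 0 allows up to 3 reads, or 0.381 to 0.605 CPM, for counting error only. Differences are given as fitted log2 ratios with an approximate standard error (SE), worked out from the test statistic. XRN2 was low in all 4 XRN2 siRNA libraries, at 33.5 and 25.6 CPM against 202 and 243 CPM with control siRNA in LN229, and at 31.1 and 26.2 CPM against 144 and 134 CPM in U251. Of 9 glioma and mesenchymal markers, VIM was at 1870.3 to 4172 CPM in LN229 and 5137 to 8092 CPM in U251. NES, CD44, SOX2 and EGFR were at 36.1 CPM or more in all libraries. S100B was at 294 to 569 CPM in LN229 and 14.9 to 22.0 CPM in U251. PDGFRA was at 11.1 to 16.6 CPM in LN229 and 290 to 584 CPM in U251. OLIG2 was at 6.74 to 9.68 CPM in LN229 and 0 to 0.161 CPM in U251. GFAP, the astrocyte filament, was at 1.05 to 4.31 CPM in LN229, against 2351 to 6903 CPM in U251. Of the blood cell markers PTPRC, HBB, CD3E, MS4A1 and CD14 stayed under 1 CPM in all libraries, while CD68 was at 1.40 to 9.68 CPM in LN229 and 47.4 to 69.7 CPM in U251. Of the epithelial markers EPCAM, CDH1 and KRT5 stayed at or below 0.323 CPM, while KRT14 was at 2.10 to 3.55 CPM in LN229 and at 0 in U251, and KRT18 at 36.3 to 85.7 CPM in LN229 and 12.3 to 22.8 CPM in U251. As a bulk measurement, a lower level can come from fewer cells with the transcript or from less of it per cell, and these cannot be told apart. A pair of libraries stood apart. U251 mock 2 had all 10 genes of an endoplasmic reticulum stress list above the other 5 U251 libraries, with a summed level of 23337 CPM against 1887 to 2023 CPM. LN229 control siRNA 1 gave 5.58% of its gene reads to introns, where the other 11 libraries gave 7.60% to 9.55%. Its level over its replicate was lower the longer the exons (Spearman −0.55 over 13074 genes, with −0.03 to 0.11 in the other 5 pairs).

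Most of these 10 genes were far higher in LN229 than in U251. In mock and control siRNA cells, 9 of 10 were higher in LN229 by the quasi-likelihood test of edgeR with Benjamini-Hochberg adjustment over all genes (adjusted p under 0.05). Of all genes tested, 67% were called in either direction, 34.9% higher in LN229 and 32.1% lower. The median log2 ratio of the 10 was 3.65, against 0.03 for all genes. All 6 LN229 libraries lay above all 6 U251 libraries for 8 of the 10, with DUSP5 and FOSL1 as the exceptions, against 24.6% of all genes. Lists of other pathway genes, described below, went both ways in this comparison. Called higher and lower in LN229 were 0 and 4 of 6 other phosphatases, 4 and 10 of 23 cascade genes and 2 and 6 of 11 negative regulators. Other immediate early and AP-1 genes had 5 and 6 of 14, and other output genes 6 and 6 of 12. Other ETS factors had 2 and 2 of 7, and other Sprouty and Spred genes 3 and 0 of 5.

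The widest gaps were those of the phosphatases DUSP4 and DUSP6. DUSP4 (ENSG00000120875, chromosome 8), a nuclear phosphatase that inactivates ERK and other MAP kinases, had 156 to 206 CPM in the 6 LN229 libraries and 0.675 to 4.84 CPM in U251. The difference between the lines was 6.09 on the log2 scale (SE 0.21, edgeR adjusted p = 5.86e-11), which is 68.3-fold. In U251 DUSP4 rested on 4 to 30 reads a library. DUSP6 (ENSG00000139318, chr12:89347232-89353271, minus strand, in GRCh38 coordinates as for the genes below), a cytoplasmic phosphatase with high preference for ERK, had 90.5 to 122 CPM in LN229 and 1.52 to 6.62 CPM in U251, a log2 ratio of 4.72 (SE 0.18, adjusted p = 1.60e-10). DUSP5 (ENSG00000138166, chr10:110497838-110511544, plus strand), a nuclear ERK phosphatase, was low in both lines, with 7.01 to 12.1 CPM in LN229 and 5.5 to 16.9 CPM in U251, and its ranges overlapped. The log2 ratio was 0.07 (SE 0.26, adjusted p = 0.822). Without U251 mock 2 it was 0.53 (adjusted p = 0.0361), and with mock as the only control −0.45 (adjusted p = 0.314).

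The Sprouty genes and the ETS factors were also higher in LN229. SPRY4 (ENSG00000187678, chr5:142310427-142326455, minus strand) had 68.6 to 197 CPM in LN229 and 5.23 to 17.8 CPM in U251, a log2 ratio of 4.23 (SE 0.28). SPRY2 (ENSG00000136158, chr13:80335976-80340951, minus strand) had 64.9 to 116 CPM in LN229 and 6.24 to 9.52 CPM in U251, a log2 ratio of 3.73 (SE 0.15). Both encode inhibitors of receptor tyrosine kinase signalling to ERK. ETV4 (ENSG00000175832, chr17:43527844-43579620, minus strand), an ETS factor of the PEA3 group, was at 12.8 to 27.8 CPM in LN229 and 0.446 to 2.26 CPM in U251, where it rested on 3 to 14 reads. Its difference was 4.15 (SE 0.22). ETV4 overlaps DHX8, and 57.5% of its exon reads were unique to it. With unique exon reads the difference was 3.70, and with reads across exon junctions it was 3.72. ETV5 (ENSG00000244405, chr3:186046308-186110318, minus strand), its close relative, had 64.3 to 109.8 CPM in LN229 and 12.04 to 42.0 CPM in U251, a difference of 2.32 (SE 0.28). Adjusted p-values of these 4 genes were 3.16e-05 at most.

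Among the remaining members, EGR1 differed strongly and FOSL1 and PHLDA1 less. EGR1 (ENSG00000120738, chr5:138465490-138469315, plus strand), an immediate early zinc finger factor, had 62.4 to 105 CPM in LN229 and 3.82 to 9.17 CPM in U251, a log2 ratio of 3.57 (SE 0.19, edgeR adjusted p = 3.42e-09). FOSL1 (ENSG00000175592, chr11:65892049-65900573, minus strand), which encodes the AP-1 subunit FRA-1, had 103 to 272 CPM in LN229 and 52.8 to 128 CPM in U251, a log2 ratio of 1.46 (SE 0.20, adjusted p = 2.97e-05). Its ranges met where XRN2 siRNA replicate 2 of LN229, at 103 CPM, lay below U251 mock 2, at 128 CPM. PHLDA1 (ENSG00000139289, chr12:76025447-76033932, minus strand), a pleckstrin-homology-like domain protein, had 297 to 348 CPM in LN229 and 159 to 201 CPM in U251. Its log2 ratio of 0.92 (SE 0.10, adjusted p = 2.75e-06) was the smallest of the 9 that passed.

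**Figure D1:**
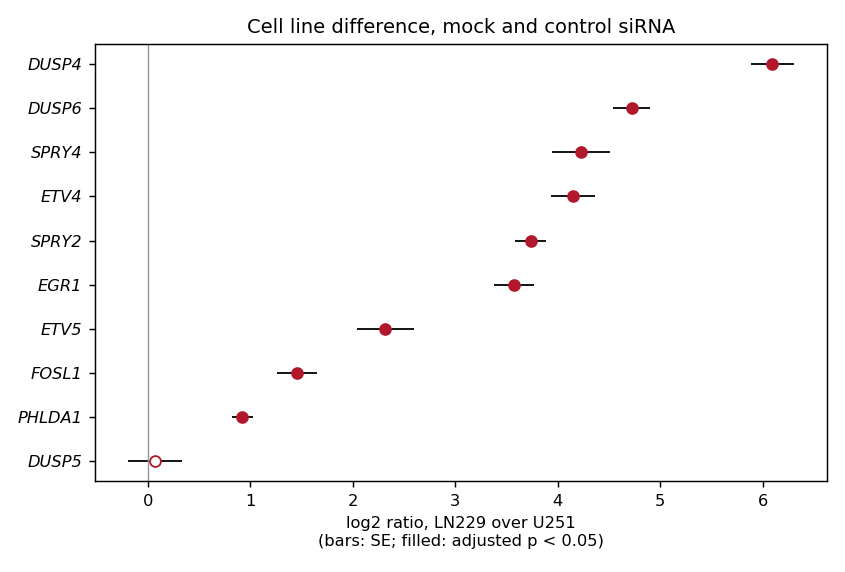
Log2 ratio of each gene in LN229 over U251 (x axis), over mock and control siRNA libraries, 4 a line, with bars of 1 SE. Filled points are those called by edgeR (adjusted p under 0.05). DUSP4 is furthest to the right at 6.09, and DUSP5 at 0.07 is the only open point.

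Per kilobase of exon, where genes can be set against each other, FOSL1 and PHLDA1 led in both lines and the order below them differed. In the 4 control libraries of LN229, FOSL1 was at 135 ± 7.81 CPM per kilobase (SD, n = 4), PHLDA1 at 41.1 ± 1.38 and SPRY2 at 36.5 ± 2.21. SPRY4 (28.1 ± 3.96), EGR1 (27.0 ± 4.25), DUSP6 (25.5 ± 1.37) and DUSP4 (23.9 ± 1.68) followed, and neighbours in this run of 4 lay within their spread of each other. ETV5 (17.2 ± 1.17), ETV4 (7.36 ± 0.390) and DUSP5 (3.71 ± 0.745) were lowest. In the 4 control libraries of U251, FOSL1 was at 49.3 ± 12.5 and PHLDA1 at 21.7 ± 2.25 CPM per kilobase. ETV5 (3.63 ± 2.42), DUSP5 (3.57 ± 1.95), SPRY2 (2.73 ± 0.509), EGR1 (2.32 ± 0.759) and SPRY4 (1.53 ± 0.980) did not differ beyond their spread from the neighbour in the order. DUSP6 (0.954 ± 0.340), ETV4 (0.409 ± 0.152) and DUSP4 (0.351 ± 0.213) were lowest, ETV4 and DUSP4 within their spread of each other. DUSP4 thus ranked 7 of 10 in LN229 and 10 of 10 in U251, and DUSP5 ranked 10 of 10 in LN229 and 4 of 10 in U251. With XRN2 siRNA in LN229 DUSP4 ranked 3, at 27.8 ± 0.725 CPM per kilobase, and SPRY4 ranked 7, at 15.4 ± 5.42 (SD, n = 2).

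**Figure D2:**
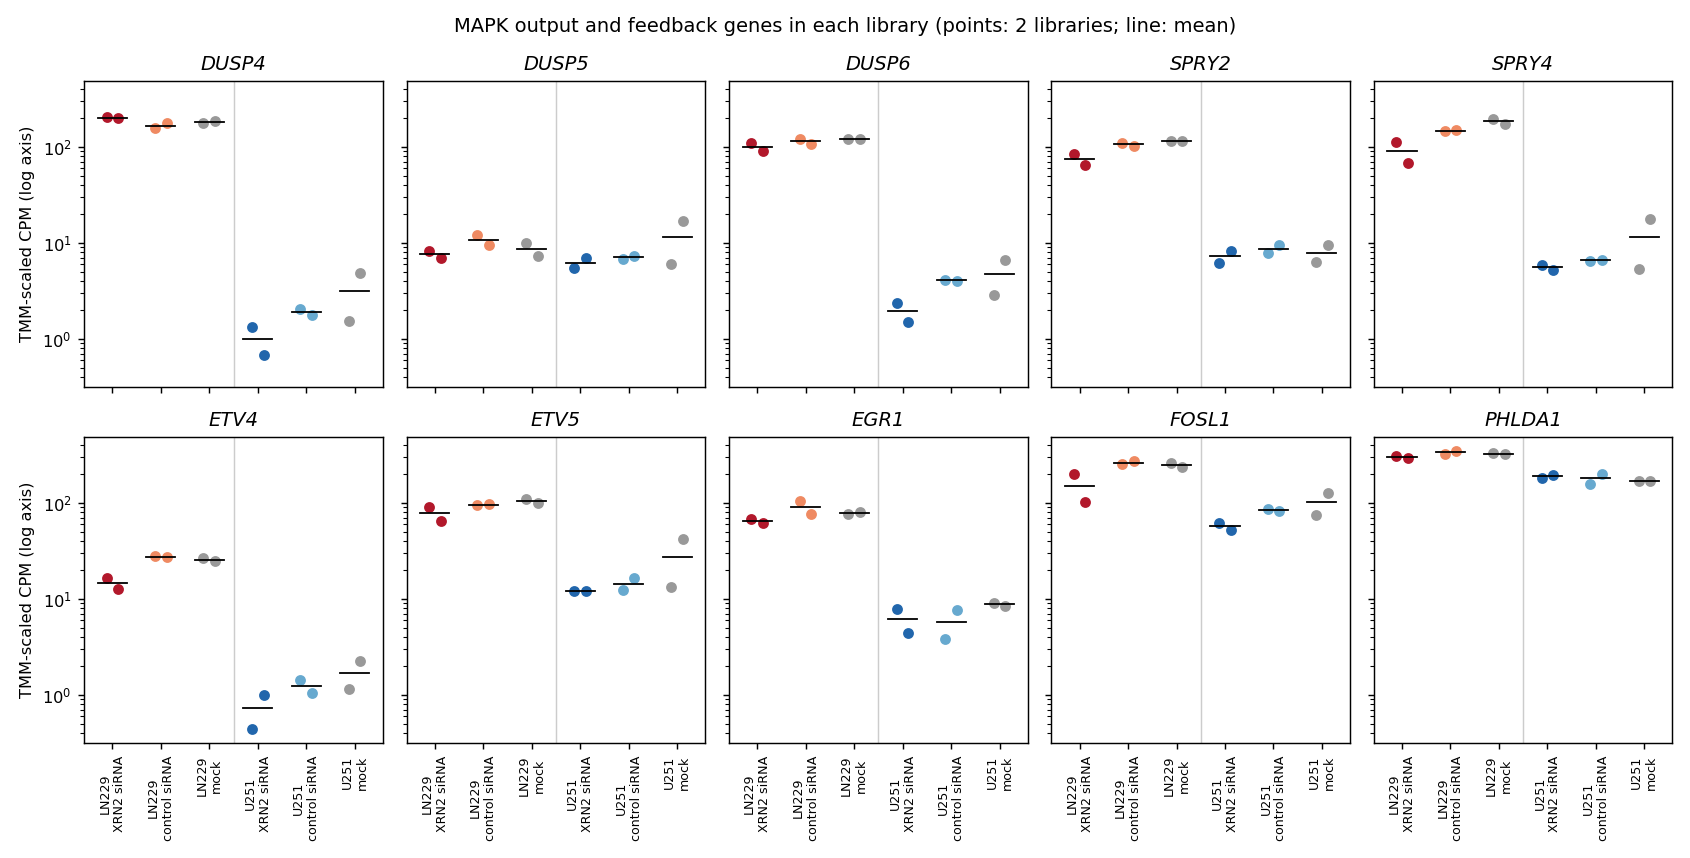
TMM-scaled CPM on a log axis for each gene, with 1 point a library and a line at the mean of the 2 libraries of a group; the groups run XRN2 siRNA, control siRNA, mock in LN229 and then in U251. DUSP4 shows the widest step between the lines, DUSP5 shows none, and in SPRY4 and FOSL1 the 2 XRN2 siRNA libraries of LN229 are far apart.

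In LN229, XRN2 siRNA was accompanied by lower levels of most of these genes, of which 1 passed the test. ETV4 fell, and the other 9 did not pass against control siRNA, where 3.16% of all genes tested were called in either direction and 1.95% lower. Of the 10 log2 ratios 9 were below 0, with a median of −0.48 against −0.00 over all genes, of which 50.1% were below 0. The median was −0.28 without control siRNA replicate 1, the library that stood apart. The share of all genes called rested on single libraries: it was 0.00686% without XRN2 siRNA replicate 2, 5.67% without XRN2 siRNA replicate 1, 0.465% without control siRNA replicate 1 and 22.5% without control siRNA replicate 2. At an unadjusted p under 0.05 there were 4 members (SPRY2, ETV4, EGR1 and FOSL1), against 22.2% of all genes. DESeq2 called none of the 10, where it called 7.23% of the genes it tested. Against mock none of the 10 passed edgeR's test, where 1.29% of all genes were called. There, 4 had an unadjusted p under 0.05, against 16.5% of all genes. DESeq2 called 0, where it called 3.53% of the genes it tested. Of edgeR's log2 ratios 9 were below 0 with a median of −0.35. That median moved to −0.57 without the first XRN2 siRNA library and to −0.21 without the second. The share of all genes called there also rested on single libraries. Only the mock and XRN2 siRNA libraries of LN229 were left out in turn for it. Both comparisons use the same XRN2 siRNA libraries.

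ETV4 had 16.4 and 12.8 CPM with XRN2 siRNA, 27.8 and 27.3 CPM with control siRNA and 26.4 and 24.6 CPM in mock in LN229. Both XRN2 siRNA libraries were below all 4 others. The log2 ratio was −0.91 against control siRNA (SE 0.22, edgeR adjusted p = 0.0442) and −0.80 against mock (SE 0.22, adjusted p = 0.0891). The call depended on the reads used. Unique exon reads of ETV4, before scaling for library size, numbered 69 and 49 with XRN2 siRNA and 59 and 86 with control siRNA in LN229. Those libraries held 6778193 and 5078488 exon reads with XRN2 siRNA, and 4846768 and 5667335 with control siRNA. After scaling, the unique reads of ETV4 gave −0.57 (adjusted p = 0.209). Reads across exon junctions gave −0.58 (adjusted p = 0.260). Without XRN2 siRNA replicate 2 the value was −0.74 (adjusted p = 0.433), and without control siRNA replicate 1 it was −0.86 (adjusted p = 0.137). ETV5 had 91.2 and 64.3 CPM with XRN2 siRNA, 94.2 and 97.3 CPM with control siRNA and 109.8 and 98.7 CPM in mock. Its XRN2 siRNA libraries were also the lowest of the 6, the first by a small margin, with a log2 ratio of −0.30 against control siRNA (SE 0.36, adjusted p = 0.658).

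The Sprouty genes were lower in both XRN2 siRNA libraries of LN229 than in any control. SPRY2 had 85.1 and 64.9 CPM with XRN2 siRNA, 111 and 101 CPM with control siRNA and 115 and 116 CPM in mock. Against control siRNA it was at −0.50 on the log2 scale (SE 0.18, edgeR adjusted p = 0.123) and −0.62 against mock (SE 0.17, adjusted p = 0.0956). SPRY4 had 114 and 68.6 CPM with XRN2 siRNA, 147 and 149 CPM with control siRNA and 197 and 174 CPM in mock. Against control siRNA SPRY4 was at −0.69 (SE 0.33, adjusted p = 0.241) and −1.02 against mock (SE 0.33, adjusted p = 0.152). The groups did not overlap for either gene, and neither passed.

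The phosphatases had log2 ratios of both signs in LN229, and none passed. DUSP4 had 206 and 198 CPM with XRN2 siRNA, 156 and 176 CPM with control siRNA and 177 and 184 CPM in mock, and was the one member with both XRN2 siRNA libraries above all 4 controls. Its log2 ratio of 0.28 against control siRNA (SE 0.20, edgeR adjusted p = 0.431) did not pass. DUSP6 had 111 and 90.5 CPM with XRN2 siRNA, 121 and 109 CPM with control siRNA and 120.2 and 122 CPM in mock, with overlapping groups and a log2 ratio of −0.19 (SE 0.19, adjusted p = 0.594). DUSP5 had 8.28 and 7.01 CPM with XRN2 siRNA, 12.1 and 9.43 CPM with control siRNA and 9.92 and 7.36 CPM in mock. Its log2 ratio was −0.48 against control siRNA (SE 0.37, adjusted p = 0.468), and its groups overlapped with mock.

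FOSL1 had the second largest difference from control siRNA among the 10 in LN229. It had 199 and 103 CPM with XRN2 siRNA, 253 and 272 CPM with control siRNA and 259 and 236 CPM in mock, so that both XRN2 siRNA libraries were below the controls and far from each other. The log2 ratio was −0.79 against control siRNA (SE 0.27, edgeR adjusted p = 0.119). It was −0.40 (adjusted p = 0.629) without XRN2 siRNA replicate 2 and −1.35 (adjusted p = 0.0161) without XRN2 siRNA replicate 1. EGR1 had 67.3 and 62.4 CPM with XRN2 siRNA, 105 and 76.8 CPM with control siRNA and 77.6 and 80.1 CPM in mock. The gap between XRN2 siRNA and the lowest control was small beside the spread of the control siRNA pair, and the log2 ratio was −0.48 (SE 0.22, adjusted p = 0.223). Without control siRNA replicate 1 it was −0.21 (adjusted p = 0.714). PHLDA1 had 309.8 and 297 CPM with XRN2 siRNA, 326 and 348 CPM with control siRNA and 328 and 325 CPM in mock, a log2 ratio of −0.15 (SE 0.14, adjusted p = 0.545).

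Counted over libraries, 7 of 10 members had both XRN2 siRNA libraries below all 4 controls in LN229 (SPRY2, SPRY4, ETV4, ETV5, EGR1, FOSL1 and PHLDA1), where 16.9% of all genes did. DUSP4 was the 1 member wholly above, where 16% of all genes were. Without TMM factors the lower count was 5, where 11.9% of all genes were. The XRN2 siRNA libraries of LN229 also differed from each other. The ratio of replicate 2 to replicate 1 was 0.521 for FOSL1, 0.601 for SPRY4, 0.706 for ETV5 and 0.763 for SPRY2, against a median of 0.993 over all genes, and was below 1 for all 10. XRN2 itself was at 33.5 CPM in replicate 1 and 25.6 CPM in replicate 2. The part of this difference in the result was not tested.

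**Figure D3:**
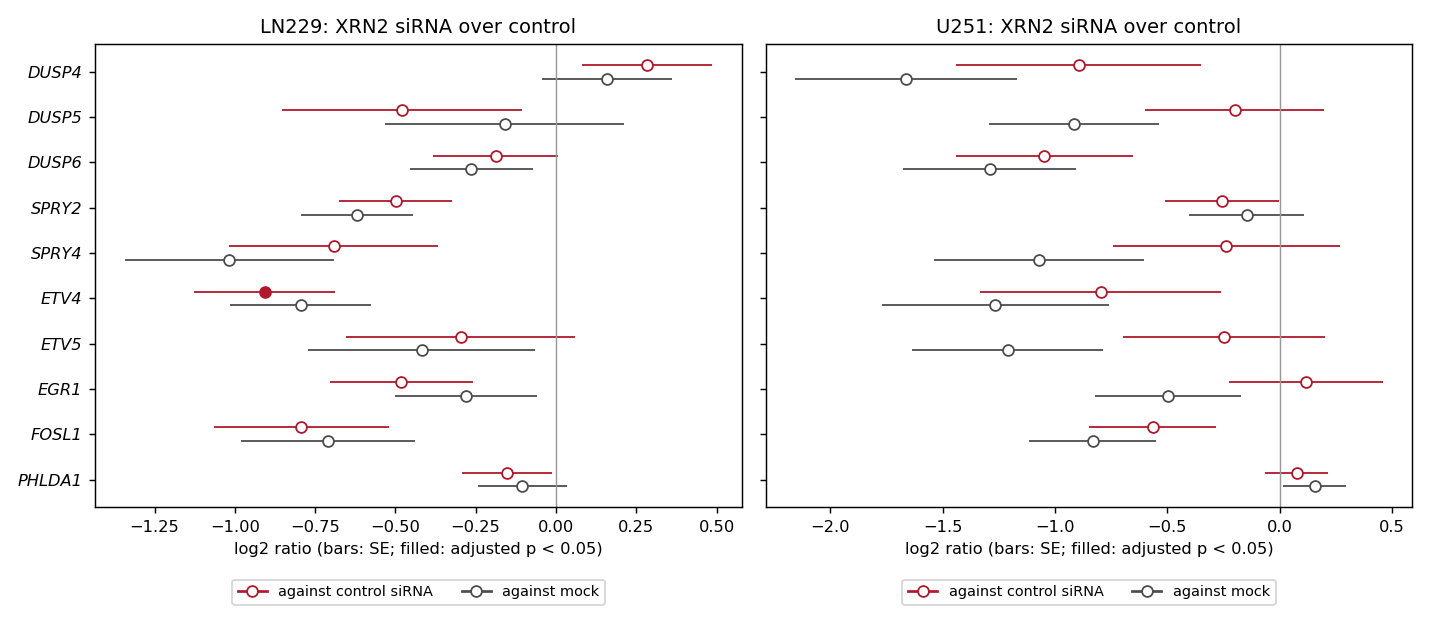
Log2 ratio of each gene with XRN2 siRNA against control siRNA (red) and against mock (grey) in LN229 (left) and U251 (right), with bars of 1 SE. ETV4 against control siRNA in LN229, at −0.91, is the only filled point, that is the only one past edgeR's adjusted p of 0.05.

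In U251 no member passed against control siRNA, where 0.00703% of all genes tested (XRN2 alone) were called. By edgeR the unadjusted p was under 0.05 for 1 member, DUSP6, against 3.89% of all genes. DESeq2 called 0 of the 10, where it called 0.0298% of the genes it tested. Of the log2 ratios 8 were below 0, with a median of −0.25 against 0.00 over all genes. Without control siRNA replicate 1 all 10 were below 0 and the median was −0.42, and without XRN2 siRNA replicate 2 it was −0.42 with 8 below 0. DUSP6 had 2.38 and 1.52 CPM with XRN2 siRNA, 4.14 and 4.05 CPM with control siRNA and 2.87 and 6.62 CPM in mock. These are 16 and 9 reads with XRN2 siRNA, 26 and 23 with control siRNA, and 15 and 41 in mock, with a log2 ratio of −1.05 against control siRNA (SE 0.39, unadjusted p = 0.0198, adjusted p = 1.0). FOSL1, the best covered gene after PHLDA1 in U251, had 61.4 and 52.8 CPM with XRN2 siRNA, 87.1 and 82.1 CPM with control siRNA and 75.5 and 128 CPM in mock. Its XRN2 siRNA libraries lay below all 4 controls, with a log2 ratio of −0.57 (SE 0.28, adjusted p = 1.0).

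At the low levels of U251 the reads limited what could be seen. ETV4 had 3 and 6 reads with XRN2 siRNA, 9 and 6 with control siRNA and 6 and 14 in mock, and its log2 ratio against control siRNA of −0.80 had an SE of 0.54. DUSP4 had 9 and 4 reads with XRN2 siRNA, 13 and 10 with control siRNA and 8 and 30 in mock, with 1.34 and 0.675 CPM with XRN2 siRNA against 2.07 and 1.76 CPM with control siRNA. Its log2 ratio was −0.89 (SE 0.54). EGR1 had 7.87 and 4.39 CPM with XRN2 siRNA, 3.82 and 7.75 CPM with control siRNA and 9.17 and 8.39 CPM in mock, with overlapping groups. PHLDA1 was well covered and had 182 and 197 CPM with XRN2 siRNA, 159 and 201 CPM with control siRNA and 169.5 and 170.5 CPM in mock. Its log2 ratio against control siRNA was 0.07 (SE 0.14). Both XRN2 siRNA libraries were below all 4 controls for 5 of 10 members (DUSP4, DUSP6, ETV4, ETV5 and FOSL1), where 10.6% of all genes were. None was wholly above, where 13.8% of all genes were.

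The comparison with mock in U251 turned on 1 library. No member passed, where 0.0492% of all genes were called. For 7, however, the unadjusted p by edgeR was under 0.05, against 10.7% of all genes. DESeq2 called 0, where it called 0.264% of the genes it tested. Of the log2 ratios 9 were below 0, with a median of −0.99. U251 mock 2 was above all other 5 U251 libraries for 8 of 10 members, where 25.5% of all genes were, EGR1 and PHLDA1 being the exceptions. Its level over that of mock 1 was 3.32-fold for SPRY4 (17.8 against 5.35 CPM), 3.17-fold for DUSP4, 3.14-fold for ETV5 (42.0 against 13.4 CPM) and 2.77-fold for DUSP5 (16.9 against 6.12 CPM). It was 2.31-fold for DUSP6, 1.97-fold for ETV4, 1.69-fold for FOSL1 and 1.51-fold for SPRY2. In the same library DDIT3, a transcription factor of the stress response, was at 404 CPM, against 13.2 to 18.4 CPM in the other 5, and HSPA5, the chaperone BiP, at 19522 CPM, against 1474 to 1637 CPM. The part of that response in the members' levels was not tested. Without U251 mock 2 the comparison of XRN2 siRNA with mock had 6 of 10 members below 0 and a median of −0.28, and without U251 mock 1 the median was −1.55, 6 members passed and 5.23% of all genes were called. SPRY4 was then at 0.06 in place of −1.07, and ETV5 at −0.15 in place of −1.21.

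**Figure D4:**
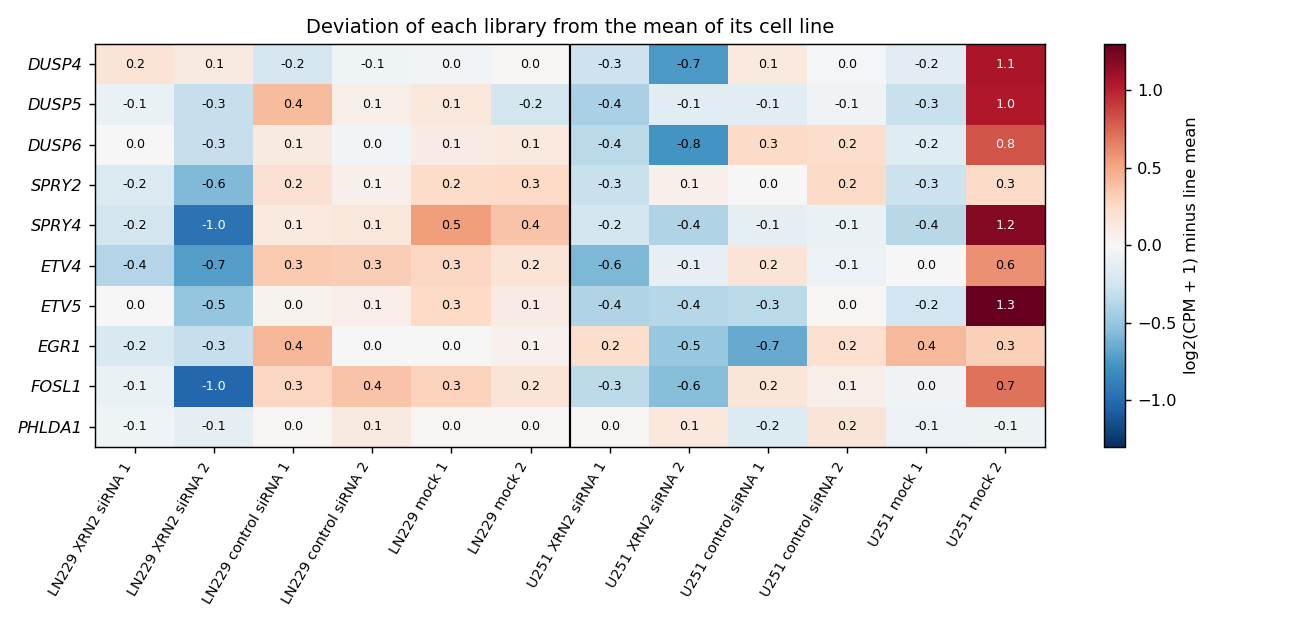
Each cell gives log2(CPM + 1) of a gene in a library minus the mean of that gene over the 6 libraries of its line; red is above and blue below that mean. In LN229 the XRN2 siRNA replicate 2 column is the bluest, and in U251 the mock 2 column is red for 9 of the 10 genes, PHLDA1 being the exception.

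Averaged over both lines, all 10 log2 ratios of XRN2 siRNA against control siRNA were below 0, where 49.4% of all genes were. Their median was −0.36. Without U251 control siRNA replicate 2, 8 were below 0. None passed edgeR's test, where 1.22% of all genes were called (0.00681% to 16.1% with 1 library left out), and 4 had an unadjusted p under 0.05, against 18.4% of all genes. DESeq2 called 1, FOSL1 (DESeq2 adjusted p = 0.0179), where it called 4.33% of the genes it tested. FOSL1 had a mean log2 ratio of −0.68 (SE 0.20, edgeR adjusted p = 0.107) and ETV4 −0.85 (SE 0.29, adjusted p = 0.155), of which the U251 part rested on 3 to 9 reads a library. DUSP6 followed with −0.62 (SE 0.22, adjusted p = 0.169). No member differed between the lines in its response to XRN2 siRNA by the test of the difference itself, which called 0% of all genes. DUSP4 came nearest, with a difference of 1.18 (LN229 minus U251, SE 0.58, edgeR unadjusted p = 0.0641, adjusted p = 0.748). The unadjusted p was above 0.05 for all 10 members. DESeq2 called 0 of them, where it called 0.189% of the genes it tested. The SE of these differences, 0.20 for PHLDA1 to 0.70 for ETV4, limits what could be seen. Control siRNA and mock, compared within each line as the background of transfection, gave 0 calls among the members and 0% of all genes. In LN229 5 of 10 members were below 0 with a median log2 ratio of −0.01. In U251 8 of 10 were below 0 with a median of −0.54, further from 0 than the −0.25 of XRN2 siRNA against control siRNA in that line. Without U251 mock 2 this comparison had 1 of 10 below 0 and a median of 0.19. At an unadjusted p under 0.05 there were 0 members in LN229, against 4.55% of all genes, and 1 in U251, ETV5, against 4.79%. DESeq2 called 0 members in both lines, and 0% of the genes it tested.

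Other genes of the pathway were counted from lists of names. The lists were chosen with earlier results of these data known, so they are no independent support for the members. The list of other MAPK output genes had 12 tested of 13. All 12 were below 0 in LN229 against control siRNA, where 50.1% of all genes were, with a median log2 ratio of −0.75. Of them 3 fell, where 1.95% of all genes did, and 1 fell against mock, where 1.29% of all genes were called. HMGA1, a chromatin protein, averaged 202 ± 38.3 CPM with XRN2 siRNA and 420.2 ± 66.7 CPM with control siRNA (SD, n = 2 each), a log2 ratio of −1.05 (SE 0.17, edgeR adjusted p = 0.0135), and also fell against mock, by 1.01 (adjusted p = 0.0172). PLAUR, the urokinase receptor, averaged 16.4 ± 5.37 CPM with XRN2 siRNA and 37.4 ± 6.97 CPM with control siRNA, a log2 ratio of −1.17 (adjusted p = 0.0251). PHLDA2, a paralog of PHLDA1, averaged 7.23 ± 5.51 CPM with XRN2 siRNA and 30.9 ± 9.91 CPM with control siRNA, a log2 ratio of −2.04 (SE 0.43, adjusted p = 0.0307). In U251 11 of the 12 were below 0 against control siRNA, where 49.5% of all genes were, with a median of −0.29, and 0 passed. In the mean of both lines against control siRNA, 2 of the 12 fell and 0 rose, where 1.22% of all genes were called. They were PLAUR (log2 ratio −0.93, edgeR adjusted p = 0.0220) and HMGA1 (−0.67, adjusted p = 0.0224).

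The kinases that carry the signal were nearer to 0. Of 23 tested genes from RAS to ERK and its kinase targets, 1 fell in LN229 against control siRNA, beside 1.95% of all genes that fell and 3.16% called in either direction, and the median was −0.05. That gene was MAP2K1, which encodes the ERK kinase MEK1, at 24.7 ± 4.42 CPM with XRN2 siRNA and 42.3 ± 0.461 CPM with control siRNA (log2 ratio −0.77, SE 0.17, edgeR adjusted p = 0.0335). Against mock it was at −0.63 (adjusted p = 0.0851). Among 11 RAS GTPase-activating proteins and other negative regulators 0 passed, with a median of 0.21. Other MAPK phosphatases (6 tested of 8, median −0.15) and other Sprouty and Spred genes (5 of 5, median −0.09) also had 0 calls against control siRNA in LN229. So had the other ETS factors (7 of 7, median −0.19) and the other immediate early and AP-1 genes (14 of 14, median −0.31). Against mock, ETV1, the third PEA3-group factor beside ETV4 and ETV5, fell in LN229 with 83.1 ± 22.0 CPM with XRN2 siRNA and 164 ± 9.73 CPM in mock (log2 ratio −0.98, SE 0.18, adjusted p = 0.0267). Its value against control siRNA was −0.69 (adjusted p = 0.0581). EGR2, an immediate early factor related to EGR1, rose against mock, with 13.7 ± 4.20 CPM with XRN2 siRNA and 4.86 ± 1.21 CPM in mock (log2 ratio 1.47, SE 0.29, adjusted p = 0.0323). EGR1 was at −0.28 there (adjusted p = 0.592). None of these 7 lists had a call in U251, against control siRNA or mock. None of the 7 list calls in LN229 (HMGA1 counted in both comparisons) held without XRN2 siRNA replicate 2. HMGA1 was then at −0.87 against control siRNA (adjusted p = 0.203), PLAUR at −0.88 (0.309), PHLDA2 at −1.47 (0.273) and MAP2K1 at −0.60 (0.378). Against mock HMGA1 was at −0.82 (adjusted p = 0.317), ETV1 at −0.73 (0.391) and EGR2 at 1.13 (0.451). Without control siRNA replicate 1, HMGA1, PLAUR, PHLDA2 and MAP2K1 were at −0.85, −0.94, −1.65 and −0.75 against control siRNA, with edgeR adjusted p-values of 0.0517 to 0.166. The calls of HMGA1, ETV1 and EGR2 against mock were lost without mock replicate 1 and also without mock replicate 2, while their log2 ratios there were −0.83 and −1.17 for HMGA1, −0.92 and −1.04 for ETV1 and 1.25 and 1.76 for EGR2. With unique exon reads MAP2K1 was at −0.61 (adjusted p = 0.0919).

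Among 8465 genes with a mean of at least 20 CPM, the pattern nearest to the members' mean over the 12 libraries, each gene centred within its line, was that of EMP1, an epithelial membrane protein. Its root mean square distance was 0.0759 on the log2(CPM + 1) scale, against a median of 0.336. EMP1 had 129 and 118 CPM with XRN2 siRNA, 170.2 and 188 CPM with control siRNA and 186 and 162 CPM in mock in LN229. In U251 it had 17.2 and 17.1 CPM with XRN2 siRNA, 20.2 and 22.2 CPM with control siRNA and 20.1 and 36.2 CPM in mock. EMP1 was picked for its nearness over these same libraries. Its lower XRN2 siRNA libraries and high U251 mock 2 follow from that choice. NUCB2 (0.0896) and PYGB (0.0957), glycogen phosphorylase of the brain type, came next. The members themselves lay 0.185 (DUSP6) to 0.321 (EGR1) from their own mean.

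Markers of other cell types that moved with XRN2 siRNA in LN229 are given beside these results. Of 4 tested oligodendrocyte markers 1 was below 0 against control siRNA. MBP, a myelin protein, rose in that comparison (log2 ratio 1.81, SE 0.40, edgeR adjusted p = 0.0325), where 3.16% of all genes were called. Its log2 ratio against mock was 1.41 and did not pass (edgeR adjusted p = 0.0687). MBP averaged 3.64 ± 0.549 CPM (24 and 23 reads) with XRN2 siRNA and 1.04 ± 0.522 CPM (7 and 4 reads) with control siRNA. Of 4 tested fibroblast and pericyte markers LUM fell against control siRNA (log2 ratio −1.31, SE 0.24, edgeR adjusted p = 0.0222), where 1.95% of all genes fell. It also fell against mock (log2 ratio −1.36, SE 0.23, edgeR adjusted p = 0.0253), where 1.29% of all genes were called. LUM averaged 34.0 ± 13.7 CPM with XRN2 siRNA and 84.9 ± 6.0 CPM with control siRNA. The list summed to 450 and 449 CPM with XRN2 siRNA and 402 and 393 CPM with control siRNA. The glioma and mesenchymal, blood, endothelial, epithelial and neuronal lists had 0 calls in the 4 comparisons of XRN2 siRNA. The part of these markers in the members' values was not tested.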

How the data were processed

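RNA of 12 libraries (6 groups of 2) was sequenced by the submitters on a MiSeq after a TruSeq RNA v2 preparation, per the labels' protocols. That kit keeps no strand, so overlapping genes share reads. The deposited tables hold whole-number counts of exon, junction and intron reads for each gene, per the file headers. The aligner is not given in the sources used here, nor is the counter. GRCh37 and hg19 are named in the submitters' processing notes; however, the tables place 55963 of the 57836 genes they share with GENCODE release 29 (96.8%), all 10 members included, at its GRCh38 coordinates.

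Total exon counts were tested in edgeR 4.0.16 (R 4.3.3): filterByExpr (minimum count 10, minimum total 15; 14232 genes kept), TMM factors of 0.927 to 1.13, 1 mean a group over all 12 libraries with 6 residual degrees of freedom, robust quasi-likelihood F-test, two-sided, with Benjamini-Hochberg adjustment over all genes at 0.05. The code was tested on simulated counts. Errors are SD over libraries or an approximate SE of a log2 fold change, which is its size divided by the square root of the F statistic. DESeq2 1.42.0 and the other alternatives are given in the closing section. Members and lists were chosen with earlier results of these data known. Named genes are all members, XRN2 and, from each list, up to 4 genes past the threshold in an XRN2 siRNA comparison by smallest p; the 3 genes nearest in pattern follow. Replicate numbers were not used as pairs in the main fit. Deviations of same-numbered libraries correlated at −0.038 to 0.066, which cannot show whether they shared a batch. Replicates differed by more than sampling noise (chi-square per gene 1.73 to 27.2). A marker gene, with the summed level of its list, is not reported here.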

Additional observations from a re-analysis of the deposited data

How the results depend on the processing

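Of the counts of members called, 117 alternative values stayed within 1.5 times the main count and 21 did not. Most main counts were 0, and staying within 1.5 times of 0 means 0 again. Against control siRNA in LN229 the count was 1. It was 0 without TMM factors (3.33% of all genes called), with unique exon reads (3.86%) and with DESeq2 (7.23%). It was also 0 with the line alone, where 1 gene of all was called (0.00749%), and with the compared groups alone (0.0307%). With exon-exon reads, chosen after seeing the data, it was 0 as well (0.445%). With no filter it was 3 (SPRY4, ETV4 and FOSL1), where 6.6% of all genes were called in place of 3.16%. The count also changed with 1 library left out. Against control siRNA in U251 it was 0, and 1 (FOSL1) with the compared groups alone, where 3.89% of all genes were called. Against mock in LN229 it was 0, but 4 with no filter (4.37% of all genes), 0 to 2 with 1 library left out and 3 (SPRY2, SPRY4 and ETV4) without both libraries that stood apart (10.8% of all genes), a setting also chosen after seeing the data. Against mock in U251 it was 0, but 6 with no filter (2.14% of all genes, against 0.0492%) and 0 to 6 with 1 library left out (5.23% of all genes for the 6, without U251 mock 1). For the mean of the lines it was 0, but 2 with no filter (4.41% of all genes), 1 with DESeq2 (4.33%) and 0 to 1 with 1 library left out. For control siRNA against mock in U251 it was 0, but 1 with no filter (1.05% of all genes) and 0 to 3 with 1 library left out (3.24% for the 3, without U251 mock 1). Without both libraries that stood apart the counts against control siRNA were again 1 in LN229 and 0 in U251. The cause was not tested. The count of members higher in LN229 than in U251 was 9 in all settings except 10 without U251 mock 2. With the replicate number as a block the counts were 1 in LN229 and 0 in U251 against control siRNA, ETV4 was at −0.92 (edgeR adjusted p = 0.0410), and no call among the members changed.

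Some log2 ratios changed sign. EGR1 against control siRNA in U251 was −0.19 with mock and control siRNA together as the control and −0.38 to 0.69 with 1 library left out, and PHLDA1 there was −0.086 to 0.25. With 1 library left out, DUSP5 against mock was −0.37 to 0.057 in LN229 and −1.45 to 0.014 in U251, where SPRY2 was −0.40 to 0.19 and SPRY4 −1.66 to 0.064. In the mean of the lines EGR1 was −0.43 to 0.10 and PHLDA1 −0.12 to 0.049 (0.016 without TMM factors). In the difference between lines ETV4 was −0.61 to 0.54 (0.26 with unique reads), ETV5 −0.33 to 0.18 (0.026 without TMM factors) and FOSL1 −0.78 to 0.17. In control siRNA against mock in LN229, DUSP6 was −0.16 to 0.0035 (0.024 with unique reads), EGR1 −0.041 to 0.41, PHLDA1 −0.0014 to 0.091, and ETV4 −0.22 with unique reads. In control siRNA against mock in U251, DUSP4 was −1.33 to 0.33, DUSP5 −1.25 to 0.22, DUSP6 −0.69 to 0.51, SPRY2 −0.14 to 0.45, SPRY4 −1.42 to 0.30, ETV4 −0.84 to 0.13, ETV5 −1.55 to 0.10, FOSL1 −0.60 to 0.16 and PHLDA1 −0.099 to 0.24. DUSP5 in LN229 against U251 was −0.20 to 0.53, and −0.45 with mock alone. None of these passed the test in the main setting.

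Fits on fewer libraries dropped ETV4 or DUSP4 of U251 as too low, and gave no value. Only libraries of the groups compared were left out in turn. With 1 library left out, the lone library of a group is assumed to vary like the other groups. Groups of 2 libraries and 3 to 30 reads for DUSP4 and ETV4 in U251 limit the precision there.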
